A study of Mus musculus with 27 samples.

Results

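Interferon-stimulated genes are switched on in a cell by interferons, the secreted proteins that warn tissue of infection. A set of 48 of them, most of them antiviral effectors, was followed gene by gene across hepatocytes of 9 inbred mouse strains. The members were the genes on a list of symbols, found in the table of estimated counts by their Ensembl identifier and its GENCODE M21 symbol. All 48 were found among the 43346 genes of the table, and all 48 passed the filter on low counts, with 14482 genes passing in all. The list was not drawn up from a fold change, but it was chosen with earlier results of these data known. The same holds for the question put to it, which genes follow a low level in CAST/EiJ and a high level in DBA/2J.

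The libraries came from hepatocytes, the main cell type of the liver, of female mice at 12 weeks of age, with no treatment named, in 9 groups that differ by strain and 3 libraries each. The classical laboratory strains were A/J, C57BL/6J, DBA/2J and 129S1/SvImJ, joined by the diabetes model NOD/ShiLtJ and the obesity model NZO/HlLtJ. The wild-derived strains were WSB/EiJ, PWK/PhJ and CAST/EiJ. The study also surveyed histone marks and DNA methylation, to link sequence differences to chromatin and to transcript levels. Libraries of a strain are labelled as biological replicates, and nothing in the labels says how many mice each one came from, so the p-values measure the spread between these libraries.

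Type I interferon binds a receptor made of IFNAR1 and IFNAR2, and the kinases JAK1 and TYK2 then activate a complex of transcription factors that holds IRF9. It enters the nucleus and binds the interferon-stimulated response element, a short promoter sequence shared by many of the induced genes. Type II interferon acts through another element, the gamma-activated site. In the absence of infection most tissues keep a low, tonic output of these genes, and the levels below are of that resting kind as far as the labels tell.

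The response element is the promoter sequence best known for this response, so promoters are shown for 5 members, 4 with a match to it and 1 without. Each stretch is the 150 bases upstream of the transcription start in the RefSeq table of build GRCm38.p6, read 5′ to 3′ along the gene, with matches to the element in capitals. The first belongs to Isg15 (chr4:156200819-156200968, minus strand), the next to Ifit1 (chr19:34640739-34640888, plus strand) and the next to Rsad2 (chr12:26456453-26456602, minus strand), 3 genes whose levels were low in CAST/EiJ and high in DBA/2J. Oasl1 (chr5:114923090-114923239, plus strand) had the same strain pattern without a match. Lgals9 (chr11:78984925-78985074, minus strand) had a match and was called in neither CAST/EiJ nor DBA/2J.
Isg15: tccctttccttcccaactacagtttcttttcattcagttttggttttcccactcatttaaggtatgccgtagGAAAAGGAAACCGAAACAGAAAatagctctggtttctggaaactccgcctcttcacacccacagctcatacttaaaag
Ifit1: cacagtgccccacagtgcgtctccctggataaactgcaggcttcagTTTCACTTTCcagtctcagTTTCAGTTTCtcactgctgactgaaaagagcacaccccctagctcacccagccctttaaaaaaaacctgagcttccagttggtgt
Rsad2: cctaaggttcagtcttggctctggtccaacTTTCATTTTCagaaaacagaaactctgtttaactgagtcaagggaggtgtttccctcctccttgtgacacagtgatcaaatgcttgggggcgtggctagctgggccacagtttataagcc
Oasl1: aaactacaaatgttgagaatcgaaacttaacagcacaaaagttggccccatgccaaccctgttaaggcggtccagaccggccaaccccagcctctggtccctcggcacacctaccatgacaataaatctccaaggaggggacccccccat
Lgals9: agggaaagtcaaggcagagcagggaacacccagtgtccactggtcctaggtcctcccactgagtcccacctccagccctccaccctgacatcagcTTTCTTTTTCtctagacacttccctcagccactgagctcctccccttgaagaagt

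The element was searched on both strands as GAAA, any 2 bases, GAAA, in windows of 300 bases around each start, and overlapping matches were counted. Isg15 has 3 overlapping matches within the stretch shown, Ifit1 has 2, and Rsad2 and Lgals9 have 1 each. A window was in the table for 34 of the 48 members, and 16 of these 34 (47.1%) held a match, against 3.99% of 27025 genes. The gamma-activated site, searched on both strands as TTCNNNGAA, was in 8 of the 34 (23.5%), against 9.55% of genes. Among members with a window, matches to the response element were found in 8 of the 17 that followed both strain levels and in 4 of the 9 that followed neither. The table is of the C57BL/6J reference, so strain differences within these windows are not in it, and a match is a description of letters only.

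Of the 48 members, 45 differed between the strains (edgeR quasi-likelihood F test, Benjamini-Hochberg adjusted p under 0.05 over all tested genes), where 74.2% of all tested genes did. CAST/EiJ was lower than the mean of the 8 other strains in 30 members and higher in 3, against 17.8% of all genes lower and 20.1% higher. DBA/2J was higher than the 8 others in 31 members and lower in 0, against 9.5% of all genes higher and 3.78% lower. Both calls fell together in 25 members, and 4.07% of all genes had both. These contrasts share 7 strains and each is part of the other's reference, so the pair of calls is not independent, and with the 7 remaining strains as the reference for each the count was 21. Without DBA/2J in the reference, the CAST/EiJ calls of Ifi27 (-0.34 against -0.63, adjusted p = 0.179), Oas1g (adjusted p = 0.0628) and Oas2 (adjusted p = 0.0542) were lost. Without CAST/EiJ in it, the DBA/2J calls of Oasl2 (1.01 against 1.52, adjusted p = 0.0675), Adar (adjusted p = 0.0856) and Ifi27l2a (adjusted p = 0.0582) were lost.

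The median log2 fold change of the 48 members was -1.38 in CAST/EiJ and 1.06 in DBA/2J, while the median over all tested genes was -0.01 and 0.01. With the 3 members that had no count in a whole strain set at their bounds, the medians were -1.50 and 1.06. Compared directly, DBA/2J was higher than CAST/EiJ in 35 members, where 17.5% of all genes were, and lower in 1, Mx2, where 14.8% were. The median of this difference was 2.23 on the log2 scale. CAST/EiJ had the lowest strain mean in 23 members, DBA/2J the highest in 23, and both held in 17.

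**Figure D1:**
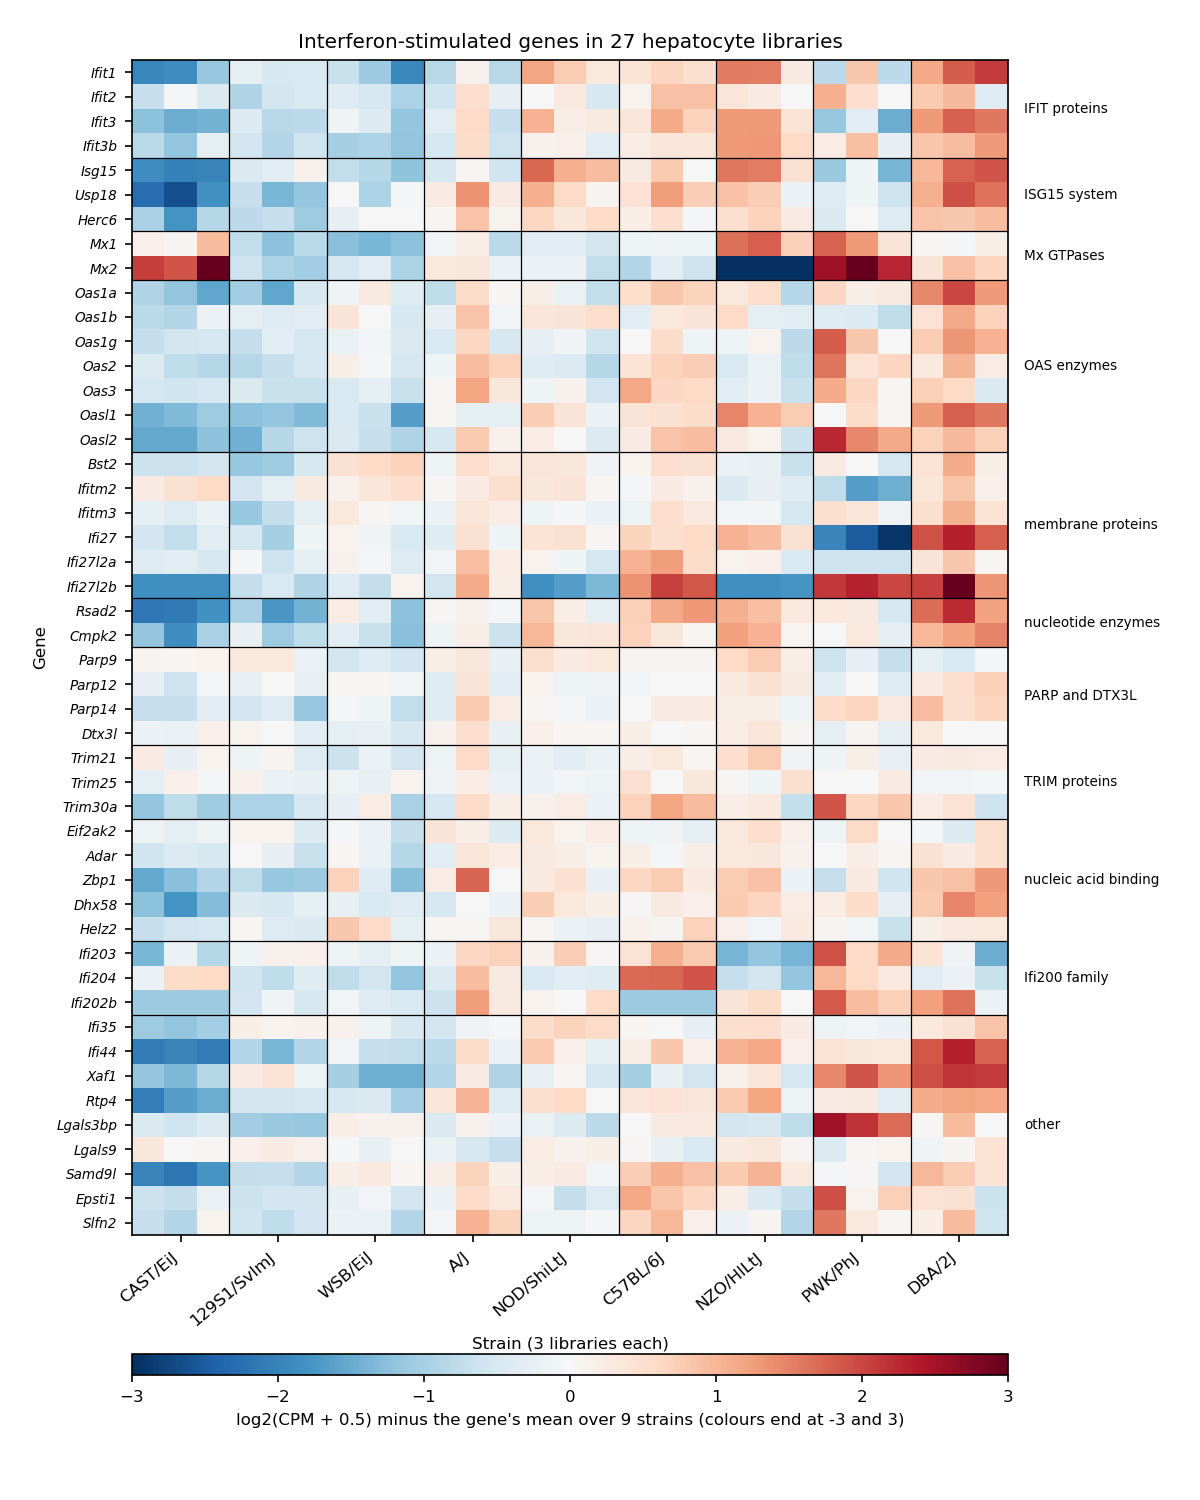
Level of the 48 genes (rows, in role groups) in the 27 libraries (columns, 3 per strain), as log2(CPM + 0.5) minus the gene's mean over the strains; blue is low, red is high, and colours end at -3 and 3. The CAST/EiJ columns are blue in most rows and the DBA/2J columns red, the Mx2 row is reversed in CAST/EiJ and darkest blue in NZO/HlLtJ, and the rows of Trim25, Dtx3l, Eif2ak2 and Lgals9 are pale throughout.

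Levels below are in CPM, counts scaled to a common, TMM-adjusted library size. Library totals ran from 17015932 to 35078483 counts, so that 1 count was worth between 0.0253 and 0.0516 CPM, and 9 members averaged under 1 CPM while 16 averaged over 10 CPM. Per kilobase of the longest transcript, mean levels ran from 0.0804 RPKM in Oas3 to 278 RPKM in Ifitm3, with a median of 2.11 RPKM. The 10 hepatocyte markers were all detected in every strain, with a summed level of 101994 to 306684 CPM. In bulk RNA such as this, fewer cells of a type and less RNA per cell cannot be told apart.

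The genes of the ISG15 system followed both levels, 3 of 3. Isg15 encodes a ubiquitin-like protein that is attached to other proteins, Herc6 an enzyme that attaches it in the mouse, and Usp18 the protease that removes it and also dampens the interferon receptor. Usp18 was at 0.532, 0.302 and 0.928 CPM in the CAST/EiJ libraries and at 10.01, 18.7 and 15.1 in those of DBA/2J, with 1.43, 4.81 and 12.3 as the lowest, median and highest of the 21 libraries of the other strains. All CAST/EiJ libraries lay below the other 24, and the lowest DBA/2J library lay within the range of the others. The log2 fold change against the 8 others was -3.36 (SE 0.42, adjusted p = 5.45e-07) in CAST/EiJ and 1.94 (SE 0.24, adjusted p = 1.92e-06) in DBA/2J, a 26.3-fold difference between the strains.

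Isg15 was at 0.443, 0.332 and 0.361 CPM in CAST/EiJ and at 6.33, 11.0 and 12.1 in DBA/2J, and the other 21 libraries ran from 0.796 to 10.8 with a median of 2.9. CAST/EiJ again lay below all other libraries, and 2 of 3 DBA/2J libraries lay above them all. It fell by 3.21 (SE 0.41, adjusted p = 8.29e-07) in CAST/EiJ and rose by 2.05 (SE 0.24, adjusted p = 5.99e-07) in DBA/2J on the log2 scale. After DBA/2J, the highest strain means of Isg15 were 7.80 ± 2.60 CPM in NOD/ShiLtJ and 7.75 ± 3.08 in NZO/HlLtJ (SD, n = 3), which lie within their spread of each other. Herc6 averaged 3.66 CPM in CAST/EiJ and 16.4 in DBA/2J, with log2 fold changes of -1.44 and 1.01.

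Of the 4 IFIT genes, whose proteins bind viral RNA that lacks the host's cap methylation, 3 followed both levels. Ifit1 was at 0.709, 0.785 and 1.65 CPM in CAST/EiJ and at 9.88, 16.1 and 19.7 in DBA/2J, between which the other libraries ran from 0.737 to 13.4 with a median of 4.63. The groups overlapped at both ends, with CAST/EiJ in WSB/EiJ replicate 4, and with DBA/2J in NZO/HlLtJ and NOD/ShiLtJ replicate 1. The log2 fold changes were -2.35 (SE 0.44, adjusted p = 0.000152) and 2.07 (SE 0.28, adjusted p = 6.49e-06).

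Ifit3 and Ifit3b are near-identical neighbours, and their counts were not whole numbers in all 27 libraries, so reads were divided between them. Their summed level was 2.39 ± 0.468 CPM in CAST/EiJ and 19.3 ± 2.98 in DBA/2J (SD, n = 3), the lowest and the highest of the 9 strains. All 3 DBA/2J libraries of Ifit3 (12.5, 18.03 and 15.5 CPM) lay above the other 24. The CAST/EiJ call of Ifit3b was lost without CAST/EiJ replicate 1 (adjusted p = 0.0548) or replicate 4 (adjusted p = 0.101). Ifit2 was called in neither contrast: it was at 0.473, 1.03 and 0.67 CPM in CAST/EiJ and at 2.24, 2.61 and 0.701 in DBA/2J, and its highest strain mean was 2.01 ± 0.701 CPM in C57BL/6J (SD, n = 3). Without DBA/2J replicate 4, the lowest of that strain, Ifit2 was called higher in DBA/2J (log2 fold change 1.25, adjusted p = 0.0199).

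The oligoadenylate synthetases make a messenger that activates the nuclease RNase L, and 5 of the 7 members of this family followed both levels. Oasl1, a relative without that enzyme activity, was at 1.42, 1.57 and 1.96 CPM in CAST/EiJ and at 12.1, 17.4 and 14.98 in DBA/2J, and the other 21 libraries ran from 1.15 to 13.8 with a median of 4.88. It was as low in 129S1/SvImJ (1.68 ± 0.107 CPM) as in CAST/EiJ (1.65 ± 0.279 CPM; SD, n = 3), within the spread of either. The log2 fold changes were -1.70 (SE 0.25, adjusted p = 6.55e-06) and 1.88 (SE 0.17, adjusted p = 1.32e-08).

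Oasl2, whose DBA/2J call needs CAST/EiJ in the reference, fell by 4.19 (SE 0.65, adjusted p = 1.39e-05) in CAST/EiJ, where its mean was 0.0715 CPM, and its highest mean was in PWK/PhJ, 4.46 CPM, not in DBA/2J, 2.17 CPM. Oas1a had all 3 DBA/2J libraries (3.55, 5.42 and 3.06 CPM) above the other 24. Counts were not whole in 24 libraries for Oas1a and 23 for Oas1g, a pair of close paralogs, and their sum was 0.223 CPM in CAST/EiJ and 5.31 in DBA/2J. The lower genes of the family rested on few counts. The CAST/EiJ call was lost for Oas1b without replicate 1 (adjusted p = 0.146) or replicate 4 (adjusted p = 0.156), and for Oas1g without replicate 1 (adjusted p = 0.170), replicate 4 (adjusted p = 0.0920) or replicate 5 (adjusted p = 0.0728) of CAST/EiJ. The DBA/2J call of Oas1b was lost without DBA/2J replicate 3 (adjusted p = 0.180).

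Oas2 was called in CAST/EiJ alone, and Oas3 in neither contrast. Oas2 was at 0.177, 0.0302 and 0 CPM in CAST/EiJ, and its call was lost without CAST/EiJ replicate 4 (adjusted p = 0.167), CAST/EiJ replicate 5 (adjusted p = 0.141) or 129S1/SvImJ replicate 3 (adjusted p = 0.0515). Oas3 had a log2 fold change of -2.36 in CAST/EiJ (adjusted p = 0.0596) and 1.43 in DBA/2J (adjusted p = 0.147), at strain means of 0.047 and 0.534 CPM. It was called in CAST/EiJ when any of 4 libraries was left out, DBA/2J replicate 4 (adjusted p = 0.0396), NOD/ShiLtJ replicate 3 (adjusted p = 0.0474), NZO/HlLtJ replicate 3 (adjusted p = 0.0423) or WSB/EiJ replicate 4 (adjusted p = 0.0481), and in DBA/2J without DBA/2J replicate 4 (adjusted p = 0.0474). The DBA/2J change of Oas2, 1.53 (adjusted p = 0.0590), passed without 129S1/SvImJ replicate 3 (adjusted p = 0.0430), CAST/EiJ replicate 1 (adjusted p = 0.0275), NZO/HlLtJ replicate 2 (adjusted p = 0.0490) or PWK/PhJ replicate 1 (adjusted p = 0.0393). The lowest strain means of both genes were in 129S1/SvImJ, although Oas2 was lowest in CAST/EiJ without 129S1/SvImJ replicate 1 or CAST/EiJ replicate 1. In 129S1/SvImJ Oas3 had 3 counts in all 3 libraries, against 73 in C57BL/6J, a ratio of 30.8 (95% interval 10.1 to 153, counting error only).

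Rsad2 (viperin), which makes a nucleotide that stops viral RNA synthesis, and Cmpk2, a nucleotide kinase encoded next to it on chromosome 12, both followed both levels. Rsad2 was at 0.887, 0.906 and 1.24 CPM in CAST/EiJ and at 19.0, 28.5 and 13.6 in DBA/2J, with 1.32, 6.48 and 14.4 as the lowest, median and highest of the other 21 libraries. CAST/EiJ lay below all others, and C57BL/6J replicate 4 reached above the lowest DBA/2J library. It fell by 2.80 (SE 0.35, adjusted p = 7.13e-07) in CAST/EiJ and rose by 2.10 (SE 0.22, adjusted p = 8.77e-08) in DBA/2J, and 129S1/SvImJ stood next to CAST/EiJ with 1.90 ± 0.652 CPM (SD, n = 3). Cmpk2 averaged 1.02 CPM in CAST/EiJ and 8.25 in DBA/2J.

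**Figure D2:**
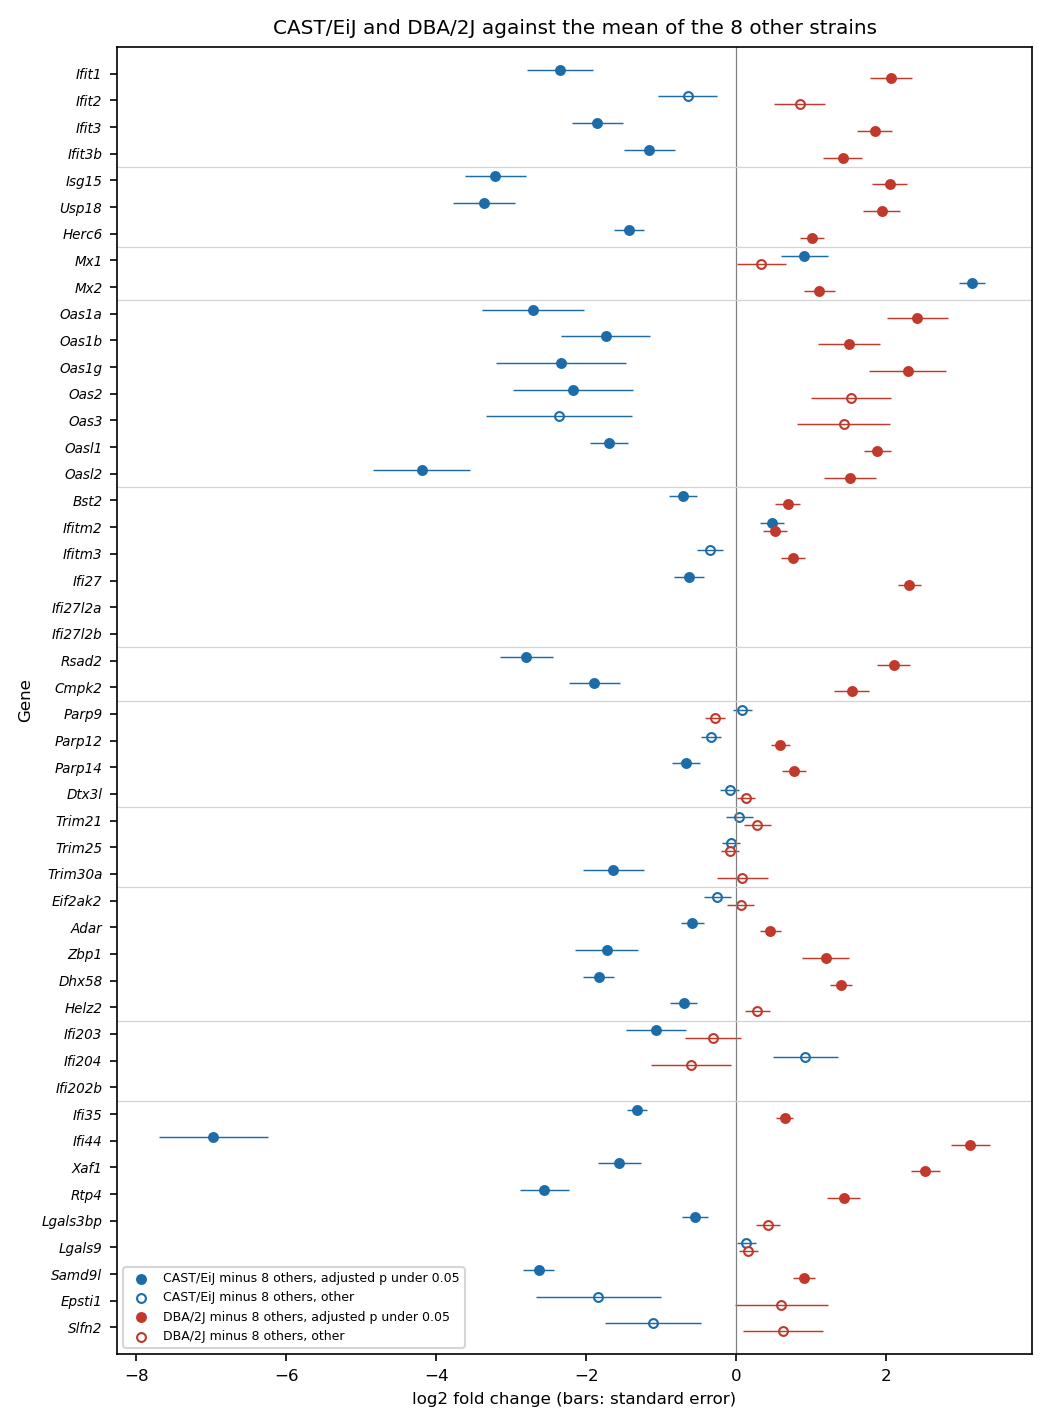
Log2 fold change of CAST/EiJ (blue) and of DBA/2J (red) against the mean of the 8 other strains for the members in role groups, with standard errors as bars and filled points for an adjusted p under 0.05; Ifi27l2a, Ifi27l2b and Ifi202b, which had no count in a whole strain, are not drawn, and Ifi44 rests on 1 count in CAST/EiJ. Blue points lie left of 0 and red points right of it for most genes, and both blue points of the Mx pair lie right of 0.

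All 6 genes of small membrane proteins were higher in DBA/2J, and 3 of them were lower in CAST/EiJ. Ifi27, a small hydrophobic protein of inner cell membranes, was at 72.4, 96.3 and 66.5 CPM in DBA/2J, and the other 24 libraries ran from 2.06 to 39.2 with a median of 17.3. The DBA/2J libraries stood clear of all others, and the gene rose by 2.31 (SE 0.15, adjusted p = 3.88e-11) on the log2 scale. Its CAST/EiJ libraries, at 12.5, 11.0 and 15.1 CPM, were not its lowest: PWK/PhJ was at 4.39, 2.92 and 2.06. The CAST/EiJ change of -0.63 (adjusted p = 0.0156) was lost without CAST/EiJ replicate 1 (adjusted p = 0.0716) or replicate 4 (adjusted p = 0.107), or without DBA/2J in the reference (adjusted p = 0.179).

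Ifi27l2b, from the same cluster on chromosome 12, was close to absent in several strains. It had no count in CAST/EiJ, 1 count in NZO/HlLtJ, a mean of 0.0928 CPM in NOD/ShiLtJ, and 7.01, 14.6 and 4.02 CPM in the DBA/2J libraries (adjusted p for DBA/2J = 1.53e-09). Set against a floor of 3 counts per library, DBA/2J was at least 76.6-fold higher than CAST/EiJ, and at least 49.5-fold higher without DBA/2J replicate 3. Whether reads were aligned to a genome of each strain is not given in the sources used here, and its part in the counts of 0 of Ifi27l2b, Ifi27l2a and Ifi202b and in the folds against them was not tested. PWK/PhJ (7.50 ± 0.863 CPM) and C57BL/6J (5.70 ± 1.47 CPM; SD, n = 3) overlapped DBA/2J. The CAST/EiJ call could not be kept without NZO/HlLtJ replicate 3, the one NZO/HlLtJ library with a count, since the fit then gave no usable standard error (adjusted p = 1).

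Its neighbour Ifi27l2a had no count in PWK/PhJ, and C57BL/6J, at 1.03 ± 0.367 CPM (SD, n = 3), was at least 9.55-fold higher than that floor. DBA/2J, at 0.549 CPM, was called higher than the other strains (adjusted p = 0.0337) although C57BL/6J was above it, and the call was lost without DBA/2J replicate 2 (adjusted p = 0.0977) or replicate 3 (adjusted p = 0.266). The reference mean on the log scale holds the PWK/PhJ libraries at 0.

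Bst2 (tetherin), which holds budding virus at the cell surface, and Ifitm2 and Ifitm3, which block virus entry from endosomes, were among the most abundant members. Ifitm3 was at 146, 137 and 156 CPM in CAST/EiJ and at 251, 380 and 240 in DBA/2J. C57BL/6J replicate 2 reached 259 CPM and PWK/PhJ replicate 1 reached 251, so the groups overlapped. The log2 fold change of Ifitm3 was 0.76 in DBA/2J (adjusted p = 0.00114), and -0.35 in CAST/EiJ missed the threshold (adjusted p = 0.108). Bst2 changed by -0.71 in CAST/EiJ (adjusted p = 0.00412) and 0.69 in DBA/2J (adjusted p = 0.00507). Without DBA/2J replicate 3, the highest library of both genes, the DBA/2J calls of Ifitm3 (adjusted p = 0.0821) and Bst2 (adjusted p = 0.285) were lost.

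Ifitm2 was higher in both strains, by 0.48 in CAST/EiJ (SE 0.16, adjusted p = 0.0182) and 0.52 in DBA/2J (SE 0.16, adjusted p = 0.0266). It was at 102, 117 and 128 CPM in CAST/EiJ and at 109, 153 and 94.1 in DBA/2J, against a range of 26.7 to 120 and a median of 89.2 in the other 21 libraries. The groups overlapped, and the strain that stood apart was PWK/PhJ, at 49.7, 26.7 and 30.5 CPM. Neither call held without each library: the CAST/EiJ call was lost without replicate 4 (adjusted p = 0.0702) or replicate 5 (adjusted p = 0.120), and the DBA/2J call without replicate 2 (adjusted p = 0.0595) or replicate 3 (adjusted p = 0.430).

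Among the proteins that bind foreign nucleic acid, 3 of 5 followed both levels. Dhx58 (LGP2), a relative of the RNA sensor RIG-I, was at 2.39, 1.45 and 2.27 CPM in CAST/EiJ and at 11.1, 18.1 and 15.3 in DBA/2J, and the other 21 libraries lay between them, from 4.25 with a median of 6.39. The gap at the top was narrow, 11.14 CPM in NZO/HlLtJ replicate 1 against 11.15 in DBA/2J replicate 2. It was 1 of the 2 members, with Ifi44, in which all CAST/EiJ libraries lay below and all DBA/2J libraries above the other 24. The log2 fold changes were -1.83 (SE 0.21, adjusted p = 1.25e-07) and 1.40 (SE 0.15, adjusted p = 1.80e-07).

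Zbp1, a sensor of Z-form nucleic acid that can set off cell death, averaged 1.43 CPM in CAST/EiJ and 8.46 in DBA/2J, and its DBA/2J call was lost without DBA/2J replicate 4 (adjusted p = 0.0871). Adar, which edits adenosine in double-stranded RNA, changed by -0.59 in CAST/EiJ and 0.46 in DBA/2J. Its DBA/2J call was lost without replicate 2 (adjusted p = 0.148), replicate 3 (adjusted p = 0.0539) or replicate 4 (adjusted p = 0.131) of DBA/2J, and without CAST/EiJ in the reference (adjusted p = 0.0856). Helz2, a helicase that acts as a coactivator of nuclear receptors, was lowest in CAST/EiJ at 70.5 CPM, and its highest mean was 145 CPM in WSB/EiJ, or 135 in C57BL/6J without WSB/EiJ replicate 2.

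Samd9l, Ifi35, Rtp4, Ifi44 and Xaf1 were the other members with both calls. Samd9l, an inhibitor of translation, was at 1.21, 1.03 and 1.5 CPM in CAST/EiJ, below all other libraries, which ran from 3.19 to 13.8. It fell by 2.63 (SE 0.21, adjusted p = 2.03e-10), the smallest adjusted p of the 30 members called lower. DBA/2J, at 13.0, 11.1 and 8.58 CPM, was higher than the other strains by 0.91. Its libraries overlapped those of C57BL/6J, whose mean was 12.2 ± 1.49 CPM (SD, n = 3).

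Ifi35 was at 5.62, 5.13 and 5.83 CPM in CAST/EiJ, and no library of another strain was under 8.36. It fell by 1.32 (SE 0.14, adjusted p = 2.53e-08) in CAST/EiJ and rose by 0.65 (adjusted p = 0.00017) in DBA/2J. Its highest mean was 19.0 CPM in NOD/ShiLtJ, where it rose by 0.69 (adjusted p = 7.25e-05). Without DBA/2J replicate 2 or replicate 3, DBA/2J had the highest mean. Rtp4 was at 0.473, 0.815 and 0.98 CPM in CAST/EiJ and at 8.36, 8.89 and 8.77 in DBA/2J, where 1 library of the others, NZO/HlLtJ replicate 2, reached 8.91. The log2 fold changes of Rtp4 were -2.56 (SE 0.33, adjusted p = 8.42e-07) and 1.43 (SE 0.22, adjusted p = 3.02e-05).

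Ifi44 had 1 count in all CAST/EiJ libraries together and 585 in those of DBA/2J, a ratio of 674 (95% interval 120 to 26658, counting error only). Its DBA/2J libraries, at 7.22, 10.2 and 6.69 CPM, lay above all others, of which the highest was NZO/HlLtJ replicate 2 at 4.28. Xaf1, a partner of the cell death inhibitor XIAP, was at 14.4, 16.9 and 16.2 CPM in DBA/2J, above the other 24 libraries. PWK/PhJ came next at 10.1, 14.1 and 9.26, and the remaining 21 libraries reached 4.69 at most, in 129S1/SvImJ. The lowest means were in WSB/EiJ, 1.11 ± 0.318 CPM, and CAST/EiJ, 1.31 ± 0.316 CPM (SD, n = 3), which lie within their spread of each other. Xaf1 rose by 2.52 (SE 0.19, adjusted p = 3.56e-10) in DBA/2J and fell by 1.56 (SE 0.29, adjusted p = 0.000122) in CAST/EiJ.

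In all, CAST/EiJ libraries lay below the other 24 in 8 members, Isg15, Usp18, Rsad2, Dhx58, Ifi35, Ifi44, Rtp4 and Samd9l, where 3.82% of all tested genes had that order. DBA/2J libraries lay above the other 24 in 6 members, Ifit3, Oas1a, Ifi27, Dhx58, Ifi44 and Xaf1, where 0.546% of all genes did.

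**Figure D3:**
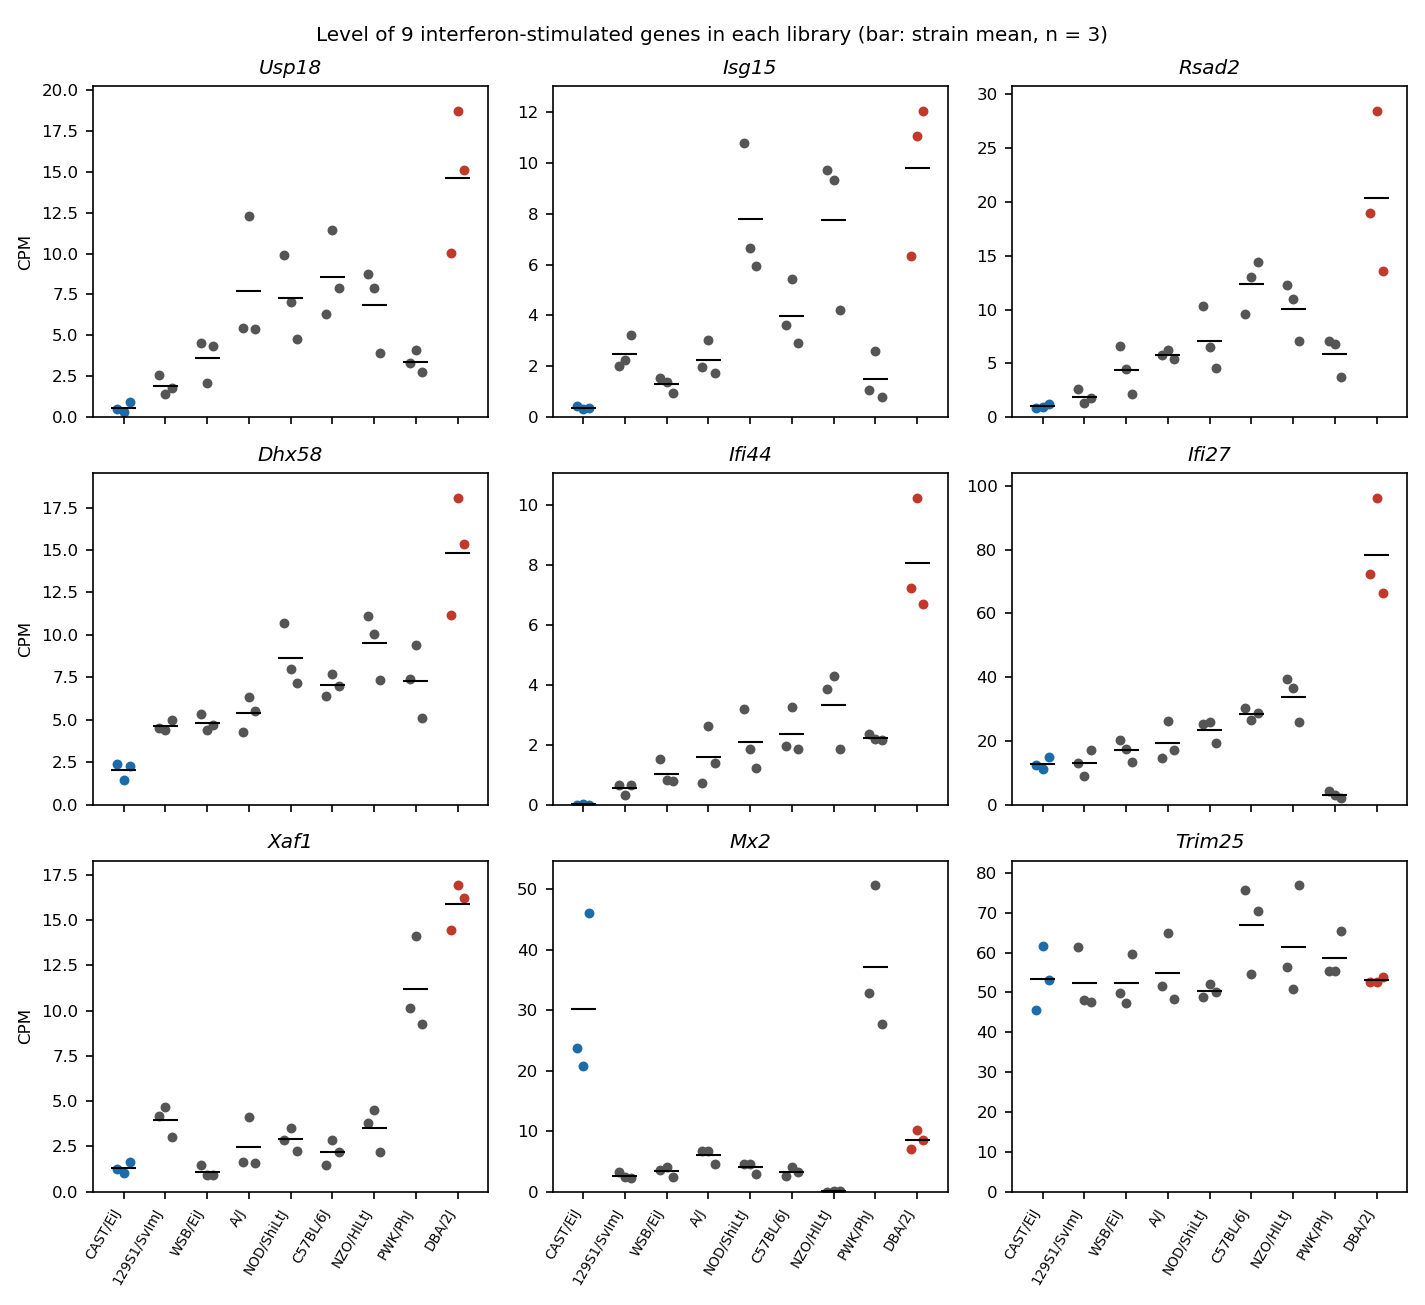
CPM of 9 members in each library (points) by strain, with the strain mean as a bar (n = 3), CAST/EiJ in blue and DBA/2J in red. Dhx58 and Ifi44 have CAST/EiJ lowest and DBA/2J highest without overlap, Xaf1 is high in PWK/PhJ as well as DBA/2J, Mx2 is high in CAST/EiJ and PWK/PhJ, and Trim25 is level.

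The Mx GTPases, dynamin-like proteins that trap viral particles, went the other way in CAST/EiJ. Mx2 was at 23.7, 20.8 and 46.0 CPM in CAST/EiJ and at 7.05, 10.2 and 8.58 in DBA/2J. PWK/PhJ had similar levels to CAST/EiJ, 32.9, 50.7 and 27.8 CPM, and NZO/HlLtJ was nearly without counts, at 0.0255, 0.101 and 0.0962. The other strains had means from 2.69 to 6.01 CPM. Mx2 rose by 3.14 in CAST/EiJ (SE 0.18, adjusted p = 3.22e-13), by 3.48 in PWK/PhJ (SE 0.17, adjusted p = 3.79e-14) and by 1.11 in DBA/2J (SE 0.21, adjusted p = 0.000487), and fell by 6.54 in NZO/HlLtJ (SE 0.43, adjusted p = 2.92e-11). The very low NZO/HlLtJ value is part of the reference of the other contrasts.

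Mx1, beside it on chromosome 16, had its highest means in NZO/HlLtJ (3.65 ± 1.46 CPM) and PWK/PhJ (3.09 ± 1.61 CPM; SD, n = 3), which overlapped, and its lowest in WSB/EiJ (0.115 ± 0.0304 CPM). It was at 1.18, 1.09 and 2.42 CPM in CAST/EiJ, and the call there of 0.91 (adjusted p = 0.0256) was lost without CAST/EiJ replicate 5 (adjusted p = 0.356). Counts of both were not whole in 26 libraries. Their summed level was 31.8 CPM in CAST/EiJ, 40.2 in PWK/PhJ and between 2.99 and 9.68 in the other strains, and kept the order of Mx2 at the top. At the bottom it did not. The NZO/HlLtJ sum was 3.72 ± 1.44 CPM, beside 2.99 ± 0.609 in 129S1/SvImJ and 3.51 ± 0.804 in WSB/EiJ (SD, n = 3). The very low NZO/HlLtJ level of Mx2 was therefore not seen in the sum.

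Of the 7 PARP, DTX3L and TRIM genes, 1 followed both levels. Parp9 and its partner Dtx3l, which overlap on opposite strands of chromosome 16 and were sequenced with a kit that does not mark strand, were called in neither contrast, and Dtx3l did not pass the test for any strain effect (adjusted p = 0.0621). Parp12 was called higher in DBA/2J (0.59, adjusted p = 0.00166), with CAST/EiJ at -0.34 (adjusted p = 0.0545), which passed without any of 6 single libraries (A/J replicates 1, 2 and 3, CAST/EiJ replicate 5, DBA/2J replicate 2 and PWK/PhJ replicate 3, adjusted p from 0.0309 to 0.0489). Parp14 followed both levels with -0.67 and 0.77, and 129S1/SvImJ was lower too, at -0.79 (adjusted p = 0.00368). Trim25, the ligase that activates RIG-I, was at 45.7, 61.5 and 53.0 CPM in CAST/EiJ and at 52.5, 52.5 and 54.0 in DBA/2J, and the other 21 libraries ran from 47.3 to 76.9 with a median of 54.6. The groups overlapped, although the lowest library of all was CAST/EiJ replicate 1, and its strain means spanned 0.39 on the log2 scale, the smallest span of the 48 members (strain effect adjusted p = 0.279).

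Eif2ak2 (PKR), the kinase that stops translation on double-stranded RNA, averaged 9.73 ± 0.554 CPM in CAST/EiJ and 11.7 ± 3.95 in DBA/2J (SD, n = 3) and had no call for strain (adjusted p = 0.156). Lgals9, a galectin and by length among the most abundant members at 209 RPKM, averaged 356 ± 49.3 CPM in CAST/EiJ and 362 ± 71.7 in DBA/2J (SD, n = 3). It passed the test for a strain effect (adjusted p = 0.0149), with A/J at -0.51 on the log2 scale against the 8 others (adjusted p = 0.00608). Trim21, the cytosolic antibody receptor, changed by 0.04 and 0.28 (adjusted p = 0.897 and 0.366). Trim30a, a regulator of Toll-like receptor signalling, was lowest in CAST/EiJ at 0.628 CPM (log2 fold change -1.64, adjusted p = 0.00244) and highest in PWK/PhJ at 4.76 ± 2.67 CPM (SD, n = 3), or in C57BL/6J at 3.83 CPM without PWK/PhJ replicate 1.

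The 3 genes of the Ifi200 family, DNA-binding proteins encoded together on chromosome 1, each had a strain order of its own. Ifi204 was at 3.18, 3.29 and 3.74 CPM in C57BL/6J, above every other library, the highest of which was 1.76 in PWK/PhJ. It rose by 2.97 there (SE 0.36, adjusted p = 1.38e-06) and was called in neither CAST/EiJ (0.92, adjusted p = 0.0988) nor DBA/2J (-0.60, adjusted p = 0.550). Ifi203 was lowest in NZO/HlLtJ (0.533 CPM), then CAST/EiJ (1.07 CPM), and its CAST/EiJ call was lost without CAST/EiJ replicate 1 (adjusted p = 0.255) or replicate 5 (adjusted p = 0.127).

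Ifi202b had no count in C57BL/6J or in CAST/EiJ. PWK/PhJ, with the highest mean at 2.03 ± 1.12 CPM, was at least 17.3-fold above the first and 18.2-fold above the second, at a floor of 3 counts per library. Without PWK/PhJ replicate 1, DBA/2J had the highest mean (1.75 CPM against 1.39). DBA/2J was at 1.98, 2.81 and 0.446 CPM. The edgeR fit gave no usable standard error for CAST/EiJ (adjusted p = 1), while DESeq2 called the gene lower there (adjusted p = 1.61e-05). Counts were not whole in 25 libraries for Ifi204 and in 23 for Ifi203, so some of their reads were divided between genes, while those of Ifi202b were whole in every library.

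Lgals3bp, a secreted glycoprotein, was led by PWK/PhJ, at 499, 388 and 278 CPM, against 38.8 to 168 in the other 24 libraries, an increase of 2.42 (SE 0.13, adjusted p = 3.83e-13). It was called lower in CAST/EiJ (-0.55, adjusted p = 0.0142), although 129S1/SvImJ and NZO/HlLtJ had lower means, and the call was lost without CAST/EiJ replicate 4 (adjusted p = 0.0841). Its DBA/2J change of 0.43 (adjusted p = 0.0798) passed without DBA/2J replicate 2 (adjusted p = 0.0481), DBA/2J replicate 4 (adjusted p = 0.0252) or PWK/PhJ replicate 1 (adjusted p = 0.0401). Epsti1 strain means ran from 0.0819 CPM in 129S1/SvImJ to 1.40 ± 1.26 in PWK/PhJ, and those of Slfn2 from 0.196 to 1.41 ± 1.17 in the same strains (SD, n = 3). Both PWK/PhJ means rest on replicate 1, without which they were 0.688 and 0.745 CPM, below C57BL/6J at 1.13 and 1.20. Their log2 fold changes in CAST/EiJ were -1.84 and -1.11 (adjusted p = 0.0851 and 0.180), and both passed the threshold without CAST/EiJ replicate 5 (adjusted p = 0.0439 and 0.0431).

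The 12 members called as neither low in CAST/EiJ nor high in DBA/2J were thus Ifit2, Mx1, Oas3, Parp9, Dtx3l, Trim21, Trim25, Eif2ak2, Ifi204, Lgals9, Epsti1 and Slfn2. Those called low in CAST/EiJ alone were Oas2, Trim30a, Helz2, Ifi203 and Lgals3bp. Those called high in DBA/2J and not called low in CAST/EiJ were Ifitm3, Ifi27l2a, Parp12 and Ifi202b, with Mx2 and Ifitm2, which were higher in CAST/EiJ too. Ifi202b had no count in CAST/EiJ, and Ifi27l2a was at 0.0887, 0.121 and 0.0516 CPM there. The fit gave no usable standard error in CAST/EiJ for either, so the missing call does not show that they were not low. A call in 1 contrast and not in the other does not show that the changes differ in size, which was not tested.

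The other 7 strains held the extremes of many members. 129S1/SvImJ had the lowest mean in 9 and WSB/EiJ in 8, while PWK/PhJ had the highest in 10, NZO/HlLtJ in 7 and C57BL/6J in 6. Without PWK/PhJ replicate 1, PWK/PhJ had the highest in 4 and C57BL/6J in 10, and without NZO/HlLtJ replicate 2, NZO/HlLtJ had it in 3. PWK/PhJ replicate 1 had a Kupffer marker sum of 442 CPM against 150 and 151 in the others of its strain and an endothelial sum of 742 CPM against 217 and 263, the part of which in its levels was not tested. 129S1/SvImJ was lower in 22 members and higher in 0 (7.86% and 10.5% of all genes), with Oas3, Oas2, Oas1a, Rsad2 and Mx1 as the largest of the called decreases, while Oas1b and Oas1g did not pass there. WSB/EiJ was lower in 12 and higher in 2, Bst2 and Helz2 (9.25% and 15.5%). C57BL/6J was higher in 17 and lower in 0 (11.6% and 6.5%), led by Ifi204 and Oas3 among the genes with counts in every strain. NZO/HlLtJ was higher in 20 and lower in 4, Mx2, Ifi203, Ifi204 and Lgals3bp (14.8% and 12.9%). PWK/PhJ was higher in 18 and lower in 6 (19.4% and 14.8%). Its decreases were Ifi27l2a, Ifi27, Ifitm2, Ifit3, Isg15 and Parp9, beside increases in Mx2, Oasl2 and Lgals3bp. NOD/ShiLtJ was higher in 10 and lower in 1 (9.2% and 5.72%), and A/J was higher in 9 and lower in 1 (15.9% and 11.6%).

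A/J differed between its libraries. In A/J replicate 2, 45 of the 48 members stood above their own mean over strains, against 14 in replicate 1 and 22 in replicate 3. The DBA/2J libraries had 37 to 43 members above their mean, and those of C57BL/6J 37 to 40. The CAST/EiJ libraries had 6 to 9, and those of 129S1/SvImJ 5 to 9. Without A/J replicate 2, CAST/EiJ was lower in 31 members and DBA/2J higher in 31.

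The upstream genes of the pathway were given by a list of 44 in roles. Of 10 interferon genes, none passed the filter, and 8 had 0 counts in all 27 libraries, which allows a level of up to 0.0759 to 0.155 CPM in a library (3 counts). The highest count of the others in any library was 2. Of 9 receptor and kinase genes, 5 were lower in CAST/EiJ, namely Ifnar1, Ifnar2, Ifngr1, Ifngr2 and Tyk2, with Ifnar1 at -0.79 (adjusted p = 3.28e-05), and 0 were called in DBA/2J. Of 8 transcription factors, 5 were lower in CAST/EiJ and 3 higher in DBA/2J.

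Irf7, which amplifies the type I response, averaged 1.45 ± 0.206 CPM in CAST/EiJ and 32.3 ± 9.07 in DBA/2J (SD, n = 3), with log2 fold changes of -3.19 (SE 0.33, adjusted p = 3.37e-08) and 1.82 (SE 0.21, adjusted p = 4.14e-07). Irf5 went from 0.44 ± 0.253 to 18.9 ± 9.55 CPM, with -4.23 (adjusted p = 1.95e-07) and 1.75 (adjusted p = 4.73e-05). Irf9, the DNA-binding part of the complex, changed by -1.18 and 0.72. Stat2 was called in neither contrast (0.25 and 0.35, adjusted p = 0.179 and 0.113).

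Of 11 tested sensors and adaptors, 4 were lower in CAST/EiJ (Ddx58, Ifih1, Tlr3 and Tlr7), 2 were higher (Mavs and Ticam1), and 1, Ddx58, was higher in DBA/2J. Of 4 tested negative regulators, 3 were higher in CAST/EiJ, Socs3 by 1.12 (adjusted p = 0.00930), Ptpn2 by 0.60 and Ptpn6 by 0.28, and 0 were called in DBA/2J. The counts of all pathway lists, with the receptors and transcription factors, stand beside 17.8% of all tested genes lower and 20.1% higher in CAST/EiJ. In DBA/2J, 9.5% of all tested genes were higher and 3.78% lower. No list was compared with all genes or another list by a test.

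**Figure D4:**
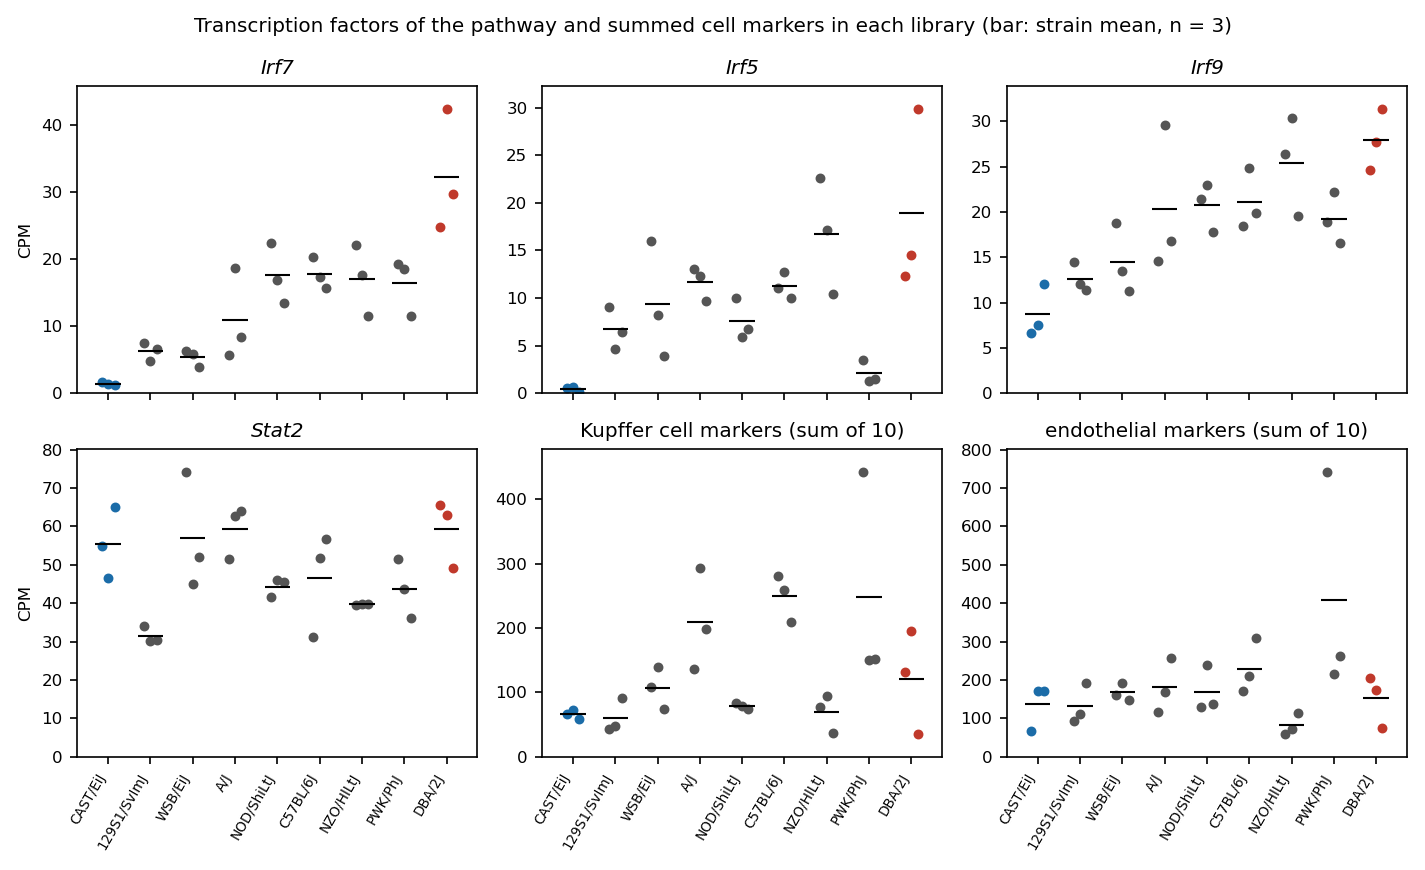
CPM of 4 transcription factors of the pathway and the summed CPM of 10 Kupffer cell and 10 endothelial markers in each library (points), with the strain mean as a bar (n = 3). Irf7 and Irf9 have their lowest means in CAST/EiJ and highest in DBA/2J, while the Kupffer sum has its highest means in C57BL/6J and PWK/PhJ and its lowest single library, 35.04 CPM, in DBA/2J.

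Markers of other liver cells varied between the libraries too. The summed level of 10 Kupffer cell markers, from the macrophages of the liver, was 59.4 to 72.5 CPM in CAST/EiJ, 35.04 to 195 in DBA/2J, 42.7 to 91.2 in 129S1/SvImJ, 210 to 281 in C57BL/6J and 150 to 442 in PWK/PhJ, with none of the 10 at 0 in any of the 9 strains. Of these 10 genes, 5 were lower in CAST/EiJ and 0 were called in DBA/2J. Of all tested genes, 17.8% were lower in CAST/EiJ, and 9.5% were higher and 3.78% lower in DBA/2J. DBA/2J replicate 4 had the lowest Kupffer sum of all libraries, 35.04 CPM. It had 37 of the 48 members above their mean, against 43 and 42 in replicates 2 and 3 of its strain. The part of its marker level in this was not tested. A/J replicate 2 had the highest Kupffer sum of its strain, 292 CPM against 136 and 198, and its T and NK cell marker sum was 4.16 CPM.

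Of 10 endothelial markers, 0 were called in CAST/EiJ and 1 in DBA/2J, and their sum was 66.2 to 172 CPM and 76.2 to 205 CPM in these strains. Genes of other marker lists were called in both directions. Of 7 stellate cell markers, 3 were lower in CAST/EiJ (Col3a1, Reln and Rgs5) and 2 higher in DBA/2J (Col3a1 and Reln), with summed levels of 18.2 to 45.3 CPM and 42.5 to 85.4 CPM and none of the 7 at 0. T and NK cell markers passed the filter for 2 of 10, and 1 of these, Il2rb, was lower in CAST/EiJ and higher in DBA/2J. Their sum was 0.309 to 0.634 CPM in CAST/EiJ, with 4 of the 10 at 0 (a count of 0 in all its libraries), and 0.542 to 3.67 CPM in DBA/2J. Of 5 plasmacytoid dendritic cell markers, 1 passed the filter, Siglech, and was lower in CAST/EiJ, where the sum was 0 to 0.151 CPM against 0.383 to 0.603 CPM in DBA/2J. Of 5 tested erythroid markers, Alas2 was lower in CAST/EiJ and higher in DBA/2J. In the opposite direction, Spp1, a cholangiocyte marker, was higher in CAST/EiJ (0.71, adjusted p = 0.0277) and lower in DBA/2J (-2.42, adjusted p = 2.15e-05). Of 7 tested monocyte and dendritic cell markers, Xcr1 was higher in CAST/EiJ (3.52, adjusted p = 9.26e-09) and Ccr2 lower (-2.03, adjusted p = 0.0447), with 0 called in DBA/2J. Of the 10 hepatocyte markers, 3 were lower in CAST/EiJ (Alb, Ttr and Cyp2e1) and 2 higher (Pck1 and Cps1), with 0 called in DBA/2J. The marker counts of all these lists stand beside 17.8% of all tested genes lower and 20.1% higher in CAST/EiJ. In DBA/2J, 9.5% of all tested genes were higher and 3.78% lower. The part of hepatocytes, cholangiocytes, monocytes, stellate, T and NK, dendritic and erythroid cells in the result was not tested.

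With the Kupffer and endothelial marker levels as covariates beside strain, 24 members were lower in CAST/EiJ and 34 higher in DBA/2J, and 22 of the 25 members with both calls kept both. Over all 14482 genes, those lower in CAST/EiJ went from 2571 to 2243 in that fit and those higher in DBA/2J from 1376 to 1909, so the member counts moved in the same directions as those of all genes. The CAST/EiJ calls of Oas1b, Oas1g, Oas2, Ifi27, Ifi203 and Lgals3bp were lost (adjusted p from 0.0889 to 0.209), with Oas1b at -1.48 against -1.74 and Ifi27 at -0.30 against -0.63. The fit also called Ifi204 higher in CAST/EiJ (1.66, adjusted p = 0.00639) and Parp9 lower in DBA/2J (-0.39, adjusted p = 0.0195), both opposite to the pattern. Its 3 further calls higher in DBA/2J were Ifit2, Lgals3bp and Oas2 (adjusted p from 0.0110 to 0.0303).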

How the data were processed

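Poly(A)-selected RNA was sequenced from 27 libraries with an unstranded TruSeq kit, per the labels' protocols. The authors deposited a table of estimated counts (expected counts) per Ensembl gene, not scaled to depth; 14.7% of the values are not whole, so reads matching several genes were divided. GRCm38 (mm10), FastQC 0.11.5 and DESeq2 are named in the submitters' processing notes. The aligner, the annotation and whether reads were aligned to a genome of each strain are not given in the sources used here, which matters for strains far from the reference.

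Counts were rounded. Genes were kept with filterByExpr, libraries scaled with TMM (factors 0.722 to 1.226), and strain means fitted to all 27 libraries with edgeR 4.0.16 (limma 3.58.1, R 4.3.3; quasi-likelihood). Each strain was set against the mean of the 8 others, and p-values were adjusted over 14482 genes (Benjamini-Hochberg) and called under 0.05. CPM are TMM-scaled counts. RPKM use the longest M21 transcript. Floors are 3 counts per library; floors and intervals cover counting error only.

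The members and lists were chosen with earlier results of these data known. Members were named by a rule: 8 with the smallest adjusted p in each direction, those called the opposite way, and those followed in neither contrast with the widest and narrowest strain range. One gene of the pathway lists is not reported here. The other members described were added to cover every role. Alternatives were DESeq2 1.42.0, median-of-ratios factors, other filters, a replicate block, marker covariates, unrounded counts, a reference of 7 strains, and leaving out each library.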

Additional observations from a re-analysis of the deposited data

How the results depend on the processing

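Against 30 members lower in CAST/EiJ, 31 higher in DBA/2J and 25 with both, DESeq2 gave 33, 32 and 28, the fit without a filter 30, 32 and 26, and a mean of at least 10 counts 31, 30 and 26. Median-of-ratios factors and unrounded counts left these 3 counts as they were. Leaving out a library gave 24 to 31, 25 to 33 and 21 to 27, and 44 to 46 members with a strain effect. Of the 25 members with both calls, 15 kept both in all 35 alternatives: Cmpk2, Dhx58, Herc6, Ifi35, Ifi44, Ifit1, Ifit3, Isg15, Oasl1, Parp14, Rsad2, Rtp4, Samd9l, Usp18 and Xaf1. No member changed direction past a threshold in any of them.

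The replicate numbers do not pair libraries across strains: the deviations of 76 same-numbered pairs correlated from -0.29 to 0.28 with a median of 0.02, and 7 of 27 libraries were most like one of their own number. With the replicate block, 21 members were lower in CAST/EiJ, 29 higher in DBA/2J and 20 both. CAST/EiJ replicate 5 is the only library with its number, so the block fits that library by itself. The CAST/EiJ contrast of this fit therefore rests on the other libraries of the strain, and the part of this in the lost calls was not tested. The lower calls lost were Adar, Bst2, Ifi203, Ifi27, Lgals3bp, Oas1a, Oas1g, Oas2 and Trim30a (adjusted p from 0.0595 to 0.307); Ifitm2 and Mx1 lost their higher call in CAST/EiJ (adjusted p = 0.173 and 0.664), and Adar and Ifitm2 theirs in DBA/2J (adjusted p = 0.0565 and 0.0711). Over all genes the CAST/EiJ calls went from 2917 higher and 2571 lower to 1738 and 1455. With the marker covariates, genes lower in DBA/2J went from 547 to 1065 and genes higher there from 1376 to 1909. Genes under 1 CPM, where 1 count is up to 0.0516 CPM, limit what can be seen: 9 members are in that range.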
